A study of Oryza sativa with 58 samples.

Results

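Nitrate transport and reduction were followed through 8 rice genes, chosen by name as the main nitrate carriers and nitrate reductases: NRT1.1B (LOC_Os10g40600), NRT2.1 (LOC_Os02g02170), NRT2.2 (LOC_Os02g02190), NRT2.3 (LOC_Os01g50820), NAR2.1 (LOC_Os02g38230), NR2 (LOC_Os02g53130), NIA1 (LOC_Os08g36480) and NIA2 (LOC_Os08g36500). The rule that picked them goes by name and uses no expression value, although earlier results of these data were known when the set was drawn up, and they are 8 of the 55986 genes listed by MSU7 identifiers. The series profiled the transcriptome of rice by RNA-Seq alongside maps of chromatin marks, and 34 of its 58 libraries carry these identifiers. They are young leaves of 17 untreated varieties, with 2 replicates each: HKG 98, Garia, Aijiaonante, Xibaizhan, WH139, Nanjing11, 9311, Y134, IR72, PeiC122, Yong Chal Byo, TAINO 38, Ginga, LABELLE, Latisai1, Gasym Hany and BASMATI 385. All plants were 2-week-old seedlings raised hydroponically in a growth chamber, so the varieties shared tissue and age and differed in genotype. Each variety had its own libraries, so any difference in harvest or library preparation between varieties cannot be told apart from genotype. The labels do not say whether the replicates of a variety came from separate plants, so the tests below measure the spread between these libraries only.

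Plants take up nitrate through carriers in the plasma membrane. Members of the NRT1 family, such as NRT1.1B, move nitrate at the root surface and within the plant, and NRT1.1B is known in rice for natural variation between the indica and japonica subspecies. Members of the NRT2 family are high-affinity carriers, and in rice NRT2.1, NRT2.2 and NRT2.3 act together with the small partner protein NAR2.1, mainly in roots. Inside the cell, nitrate reductase turns nitrate into nitrite, the step encoded here by NR2, NIA1 and NIA2. In the plastid, nitrite reductase then makes ammonium, which glutamine synthetase and glutamate synthase build into amino acids.

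Expression was deposited as FPKM, a fragment count scaled for transcript length and for library size. The libraries had between 18170 and 20083 genes above 1 FPKM. Their depth relative to HKG 98 replicate 1, estimated from the most common ratio between low values of the same genes, was between 0.427 and 1.02. FPKM values carry no counts, so the counting error of a single value is unknown. The replicates of a variety correlated over all genes with r between 0.961 and 0.990 in 16 varieties and with r = 0.904 in PeiC122. In PeiC122, 18.2% of the tested genes differed by more than 2-fold between the replicates, against 0.948% to 3.57% in the other 16 varieties. PeiC122 replicate 1 had the smallest number of genes above 1 FPKM, 18170, against at least 19310 in the 32 libraries of the other 16 varieties, and calls that rest on it are given with and without it. The summed FPKM of 6 green leaf marker genes was between 18256 and 35350. In PeiC122 replicate 1, 2 of the 6 were below every library of the other 16 varieties, LOC_Os09g17740 with 179 FPKM, against 1477 FPKM in replicate 2 and at least 1224 FPKM in the other varieties, and LOC_Os01g41710 with 430 FPKM, against 2262 FPKM in replicate 2 and at least 761.7 FPKM in the other varieties. The remaining markers lay within the range of the other varieties in both replicates. LOC_Os12g17600 (7953 against 7678 FPKM) and LOC_Os12g19470 (1401 against 1075 FPKM) were higher in replicate 1 than in replicate 2. LOC_Os12g19381 (1668 against 2636 FPKM) and LOC_Os11g47970 (10327 against 11207 FPKM) were lower. The sum of 4 root marker genes was between 4.70 and 12.1 FPKM. LOC_Os02g51110 made up much of it, with 4.30 to 11.5 FPKM and no library at 0, LOC_Os02g44310 reached 6.38 FPKM in BASMATI 385 and was at 0 in 20 libraries, and LOC_Os03g46470 and LOC_Os03g01700 stayed below 1 FPKM, at 0 in 2 and 25 libraries.

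The 8 genes covered a wide range of levels in young leaf. NIA1 was the highest, between 143 and 536 FPKM with a median of 324 FPKM. NR2 followed with a median of 55.3 FPKM, NRT1.1B with 15.7 FPKM and NIA2 with 1.61 FPKM. NRT2.3 and NAR2.1 stayed below 1 FPKM in all 34 libraries, and NRT2.1 and NRT2.2 were listed at 0 in all 34.

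To ask which genes differed among varieties, the 17 variety means were compared by an F test in limma on log2(FPKM + 1), across the genes whose mean exceeded 1 FPKM in any variety. Calls required p below 0.01 after Benjamini-Hochberg adjustment, and more than 1.5-fold between the highest and the lowest variety. Of the 8 genes, 4 passed the filter on low values, NRT1.1B, NR2, NIA1 and NIA2, and all 4 were called. Among all 24568 genes tested, 68.8% were called, so that a call in this test is common among leaf genes. Each variety was then set against the mean of the other 16, with p-values adjusted over all genes and all 17 varieties and the same cutoffs. Over the 68 comparisons of the 4 genes, 12 were called higher (17.6%) and 11 lower (16.2%), against a background of 6.96% higher and 6.76% lower over all genes and varieties. NR2 accounted for 14 of these 23 calls. For the other 3 genes, 4 of 51 comparisons were called higher (7.84%) and 5 of 51 lower (9.80%), close to the background.

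**Figure D1:**
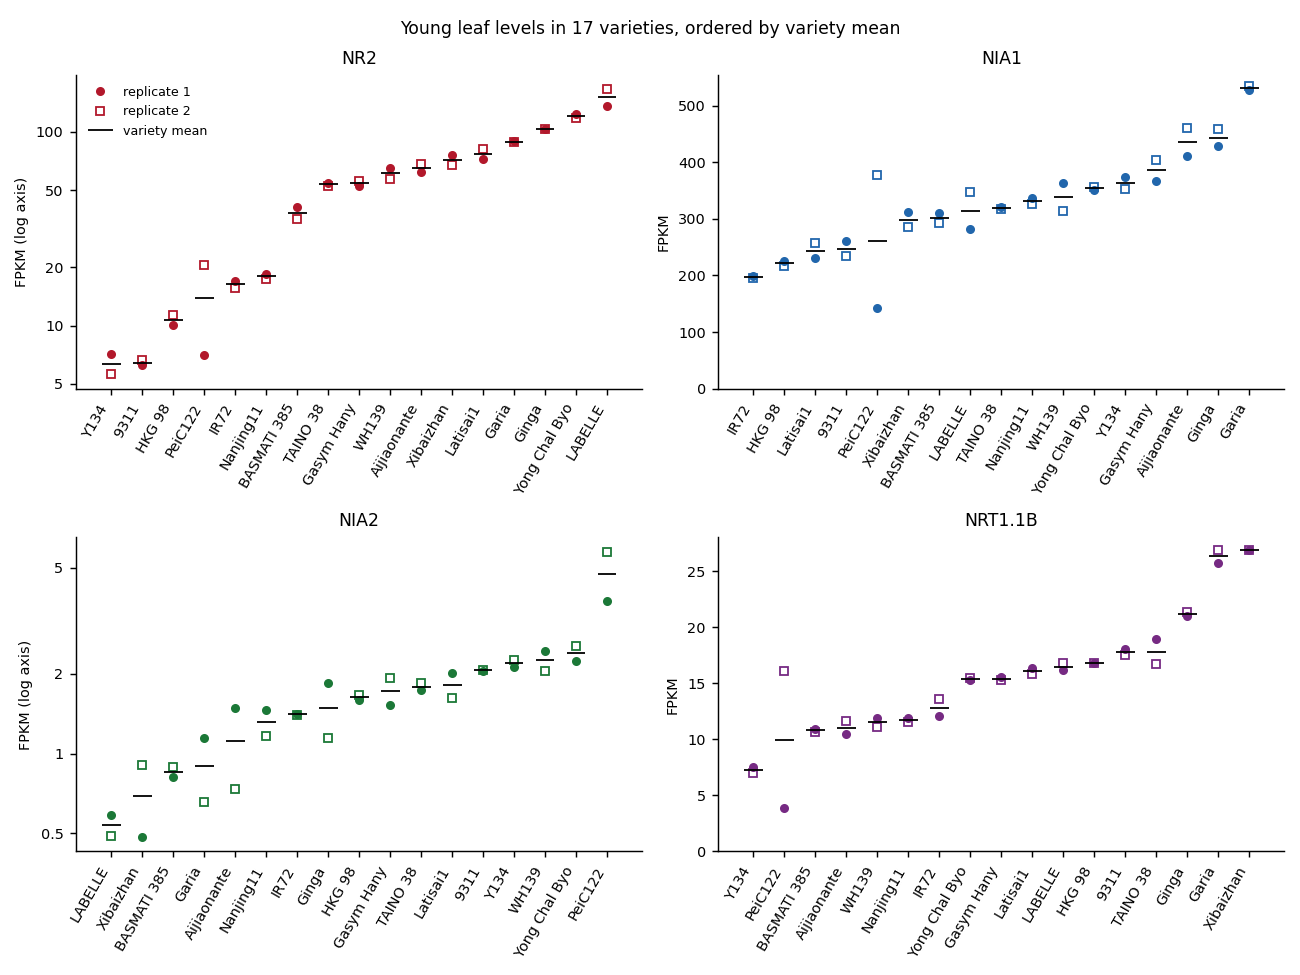
FPKM of NR2, NIA1, NIA2 and NRT1.1B in young leaf of 17 varieties, ordered by variety mean in each panel, with log axes for NR2 and NIA2. Circles and squares are the 2 replicates and lines their mean. NR2 runs between 151.4 FPKM in LABELLE and 6.35 FPKM in Y134, whereas NIA1 runs between 532 FPKM in Garia and 197 FPKM in IR72, and the replicates of PeiC122 lie far apart in 3 of the 4 panels.

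Among the carriers, NRT1.1B was found in every library, between 3.86 and 26.9 FPKM. It was highest in Xibaizhan, with 26.9 and 26.9 FPKM, and in Garia, with 25.8 and 26.9 FPKM. Both varieties stood above every library of the other 15, of which Ginga was nearest with a mean of 21.2 FPKM. At the low end, Y134 had 7.53 and 6.99 FPKM. BASMATI 385, Aijiaonante, WH139 and Nanjing11 formed a run of close means between 10.8 and 11.7 FPKM, and IR72 lay just above at 12.8 FPKM. Yong Chal Byo, Gasym Hany, Latisai1, LABELLE, HKG 98, 9311 and TAINO 38 had means between 15.4 and 17.8 FPKM. Along the order of means, the replicates of neighbouring varieties overlapped in 9 of 16 pairs, and the median ratio between the replicates of a variety was 1.03.

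The highest variety mean of NRT1.1B was 3.70-fold the lowest in FPKM. On the log2(FPKM + 1) scale the variety means spanned 1.76 (SE 0.30, F test adjusted p = 0.000695), and 71.5% of tested genes had a smaller range. Xibaizhan was higher than the other 16 varieties by 0.89 on the log2(FPKM + 1) scale (adjusted p = 0.00353) and Garia by 0.85 (adjusted p = 0.00464). Y134 was lower by a difference of -0.98 (adjusted p = 0.00154). PeiC122 was also called lower, at -0.83 (SE 0.22, adjusted p = 0.00584), but its replicates had 3.86 and 16.1 FPKM. Without PeiC122 replicate 1 its difference was 0.08 (adjusted p = 0.358), so that this call rests on that library alone. Without that library the SE of the range was 0.065, against 0.30 with it, and the calls for Xibaizhan, Garia and Y134 stood. With a single library of the variety, the difference was 0.88 or 0.83 for Garia (adjusted p = 0.0380 and 0.0523), 0.89 in both cases for Xibaizhan (adjusted p = 0.0376 and 0.0374) and -1.03 or -0.93 for Y134 (adjusted p = 0.0166 and 0.0284), which kept the direction and lost the call.

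The high-affinity system was near or below the limit of these data. NRT2.1 and NRT2.2, a pair of close homologs that may share reads, were listed at 0 in every library, which does not show that they are silent. NRT2.3, known in rice for carrying nitrate from root to shoot, was listed above 0 in 33 of 34 libraries, with a median of 0.297 FPKM. Its highest values were 0.845 and 0.698 FPKM in Ginga and its lowest were 0 and 0.0455 FPKM in PeiC122, next to 0.0647 and 0.116 FPKM in TAINO 38. The replicates often disagreed, as with 0.0808 and 0.462 FPKM in Latisai1 and 0.195 and 0.651 FPKM in HKG 98, and neighbouring varieties overlapped in 14 of 16 pairs.

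NAR2.1, the partner that the NRT2 carriers need, was listed at 0 in 15 of 34 libraries. Both libraries were at 0 in Xibaizhan, Yong Chal Byo, TAINO 38, Ginga and Latisai1, and both were above 0 in 7 varieties, Aijiaonante, Nanjing11, 9311, Y134, IR72, Gasym Hany and BASMATI 385. IR72 was highest at 0.546 and 0.476 FPKM, above both Gasym Hany values of 0.355 and 0.329 FPKM. Ginga, the variety with the highest NRT2.3, was thus among those with NAR2.1 at 0. When the filter on low values was dropped, the F test gave an adjusted p of 0.0112 for NRT2.3 and 0.0149 for NAR2.1. Neither gene was called, and no variety was called for either gene against the others. In those comparisons Ginga for NRT2.3 (0.45, adjusted p = 0.00474) and IR72 for NAR2.1 (0.41, adjusted p = 0.00581) passed the cutoff for adjusted p. Both fell short of 1.5-fold on log2(FPKM + 1), a scale that understates folds at such levels. The missing calls therefore do not show that no variety differed. Over the 17 varieties, the levels of NRT2.3 and NAR2.1 had a Pearson's r of 0.097 and a Spearman's rho of 0.13.

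**Figure D2:**
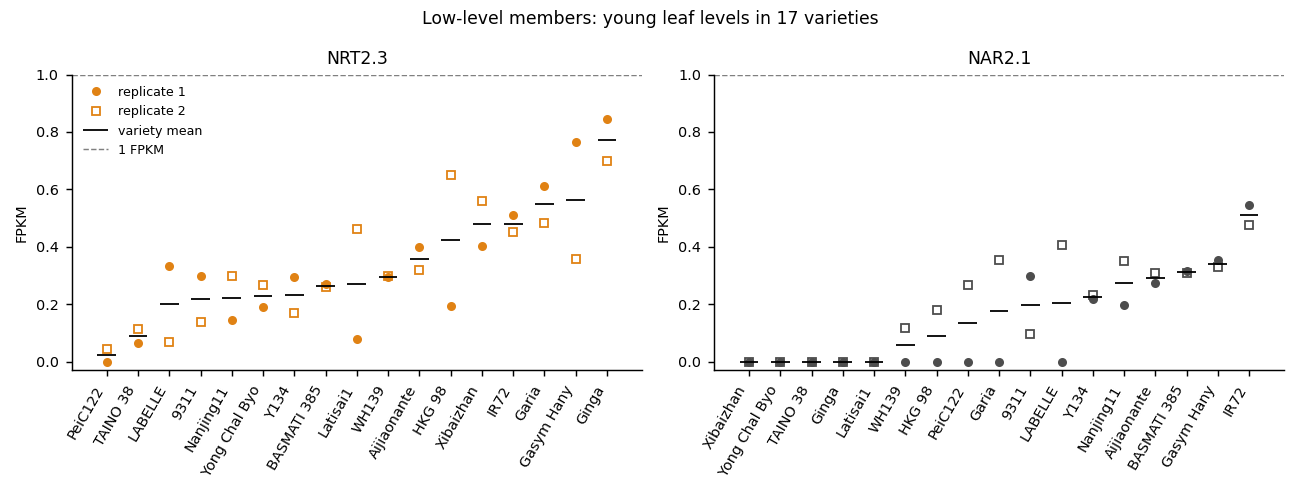
FPKM of NRT2.3 and NAR2.1 in young leaf of 17 varieties, ordered by variety mean, with circles and squares for the 2 replicates, solid lines for their mean and a dashed line at 1 FPKM. No library reaches 1 FPKM for either gene, the highest being 0.845 FPKM for NRT2.3 in Ginga and 0.546 FPKM for NAR2.1 in IR72, and NAR2.1 lies at 0 in 15 libraries.

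Among the reductases, NR2 was the most variable. LABELLE had 136 and 166 FPKM, Yong Chal Byo 124 and 118 FPKM, and Ginga 104 and 103 FPKM. At the other end Y134 had 7.11 and 5.60 FPKM and 9311 had 6.23 and 6.61 FPKM, and no replicate of the first 3 varieties came near those of the last 2. The highest variety mean was 23.8-fold the lowest in FPKM. On the log2(FPKM + 1) scale the variety means spanned 4.37 (SE 0.25, F test adjusted p = 3.60e-12). Of all genes tested, 97.1% had a smaller range between their highest and lowest variety, the median range being 1.24 on the same scale.

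The order of NR2 levels fell into a low and a high set with a step between them. The low set held 6 varieties, Y134, 9311, HKG 98, PeiC122, IR72 and Nanjing11, with means between 6.35 and 17.9 FPKM. HKG 98 had 10.0 and 11.3 FPKM, IR72 17.1 and 15.5 FPKM, and Nanjing11 18.4 and 17.5 FPKM. The next variety, BASMATI 385, had 40.9 and 35.6 FPKM, and its mean of 38.3 FPKM was 2.13-fold that of Nanjing11, the largest ratio between neighbours in the order. The other 10 varieties had means between 151.4 FPKM in LABELLE and 53.4 FPKM in TAINO 38. Within the order, Y134 did not separate from 9311, TAINO 38 not from Gasym Hany, and WH139, Aijiaonante, Xibaizhan and Latisai1 formed a chain of overlapping neighbours, for 7 overlapping pairs of 16 once both pairs with PeiC122 are counted. The median ratio between replicates was 1.1, and outside PeiC122 the largest was 1.27, in Y134.

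Against the other 16 varieties, NR2 was called in 14 of 17. It was higher in 8: LABELLE by 2.07 on the log2(FPKM + 1) scale, Yong Chal Byo by 1.74, Ginga by 1.50, Garia by 1.27, Latisai1 by 1.05, Xibaizhan by 0.94, Aijiaonante by 0.79 and WH139 by 0.69. It was lower in the 6 varieties of the low set, with differences of -2.58 in Y134, -2.56 in 9311, -1.86 in HKG 98, -1.68 in PeiC122, -1.26 in IR72 and -1.12 in Nanjing11. The SE was 0.18 for each, and adjusted p-values lay between 7.04e-10 in Y134 and 0.00608 in WH139. Gasym Hany (0.52, adjusted p = 0.0355), TAINO 38 (0.50, adjusted p = 0.0429) and BASMATI 385 (-0.0044, adjusted p = 0.988) were not called. The replicates of PeiC122 had 7.05 and 20.5 FPKM, and without replicate 1 its difference was -0.97 (adjusted p = 6.61e-07), smaller in size and still called. With 1 library of the variety left, Aijiaonante (0.86 or 0.72) and WH139 (0.60 or 0.79) were no longer called. Xibaizhan lost its call without its replicate 1 (0.85). The SE behind these values is shared by all varieties and includes the spread of the PeiC122 pair. Without PeiC122 replicate 1, and with both of their own libraries, Aijiaonante (0.74), WH139 (0.65) and Xibaizhan (0.89) were still called.

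**Figure D3:**
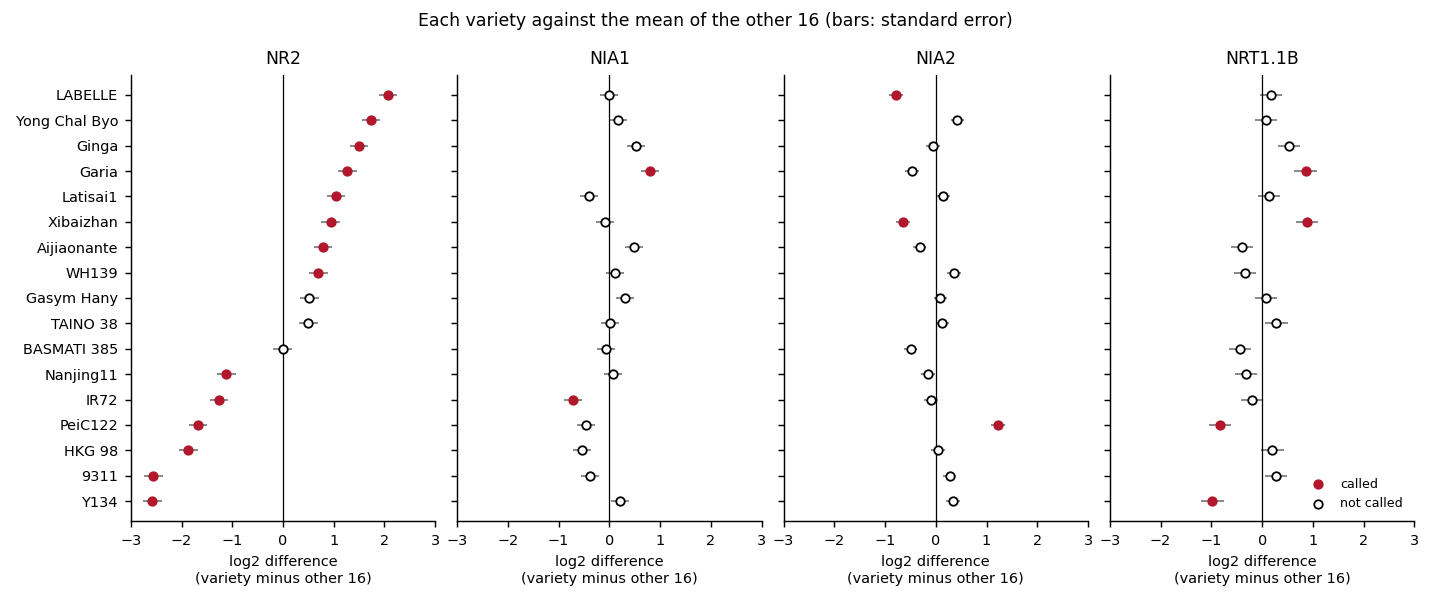
Difference between each variety and the mean of the other 16 on the log2(FPKM + 1) scale for NR2, NIA1, NIA2 and NRT1.1B, with bars for the standard error and varieties ordered by NR2 level, highest at the top. Filled points passed both cutoffs, in 14 varieties for NR2, 2 for NIA1, 3 for NIA2 and 4 for NRT1.1B, and the varieties take another order in each of the other 3 panels.

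NIA1, the most abundant reductase transcript, varied much less. Garia was highest at 528 and 536 FPKM, clear of Ginga with 429 and 458 FPKM and Aijiaonante with 412 and 461 FPKM. IR72 was lowest at 199 and 196 FPKM, just under HKG 98 with 226 and 218 FPKM. Between these ends the means were closely spaced, and 11 of 16 neighbouring pairs overlapped. The highest variety mean was 2.69-fold the lowest in FPKM. On the log2(FPKM + 1) scale the variety means spanned 1.42 (SE 0.24, F test adjusted p = 0.00105), and 59.2% of tested genes had a smaller range. Y134, the lowest variety for NR2, had 373 and 352 FPKM of NIA1, above the median of 324 FPKM.

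Garia was called higher for NIA1 by 0.80 (adjusted p = 0.00157) and IR72 lower at -0.72 (adjusted p = 0.00362). Both calls depended on the scaling. Under quantile normalization the difference was 0.38 in Garia (adjusted p = 0.0361) and -0.56 in IR72 (adjusted p = 0.00312, under 1.5-fold), and no variety was called. The log2 range among varieties was then 0.97, with Ginga highest in place of Garia. The 2 Garia libraries had FPKM sums of 1442721 and 1061020, against a median of 781367 over all libraries. The sums of the green leaf markers were likewise highest in Garia, with a mean of 35004 FPKM, and lowest in IR72, with 19261 FPKM. That sum leans on LOC_Os11g47970 and LOC_Os12g17600, with medians of 9740 and 6388 FPKM, against at most 2603 FPKM for the other markers. IR72 was the lowest variety for LOC_Os11g47970 only, and each of the other markers was lowest in another variety. Over the 17 varieties NIA1 had r = 0.72 (rho = 0.61) with the green leaf marker sum and r = 0.67 (rho = 0.50) with the FPKM sum, measures that come from the same libraries, and their part in the differences of NIA1 was not tested. NR2 had r = 0.63 (rho = 0.60) with the green leaf marker sum and r = 0.27 (rho = 0.05) with the FPKM sum, whose part in its differences was likewise not tested. Under the same quantile normalization Garia was still called for NR2 (1.07) and for NRT1.1B (0.75).

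PeiC122 had 143 and 378 FPKM of NIA1, the lowest library of all and one above the median. Without replicate 1, PeiC122 was at 0.23 (adjusted p = 0.0571), against -0.47 with it, neither of which was called, and HKG 98 was called lower as a further variety (-0.59, adjusted p = 8.09e-07). Without replicate 2, PeiC122 was called lower at -1.16 (adjusted p = 4.94e-09). With 1 library of the variety left, Garia was at 0.81 or 0.79 and IR72 at -0.73 or -0.71, all short of the cutoff for adjusted p. The SE behind these values is shared by all varieties and includes the spread of the PeiC122 pair. Without PeiC122 replicate 1, and with both of their own libraries, Garia was at 0.75 and IR72 at -0.76, both still called.

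NIA2 was a minor transcript, between 0.484 and 5.76 FPKM, and above 1 FPKM in 26 of 34 libraries. PeiC122 stood apart with 3.76 and 5.76 FPKM, above every other library, and here both of its replicates were high. The next variety, Yong Chal Byo, had 2.23 and 2.54 FPKM. LABELLE, highest for NR2, was lowest for NIA2 with 0.589 and 0.489 FPKM, followed by Xibaizhan with 0.484 and 0.902 FPKM and BASMATI 385 with 0.812 and 0.888 FPKM. Neighbouring varieties overlapped in 13 of 16 pairs, and outside PeiC122 the largest ratio between replicates was 2.02, in Aijiaonante.

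The highest variety mean of NIA2 was 8.84-fold the lowest, a log2(FPKM + 1) difference of 1.88 (SE 0.19, adjusted p = 2.92e-06), a scale that understates folds at such levels. PeiC122 was called higher by 1.22 (adjusted p = 4.89e-07), and by 1.47 without replicate 1 (adjusted p = 9.07e-07). LABELLE was called lower at -0.78 (adjusted p = 0.000129) and Xibaizhan at -0.65 (adjusted p = 0.000871), the second of which was -0.47 without Xibaizhan replicate 1 (adjusted p = 0.0600). Garia, with 1.15 and 0.655 FPKM, was not called (-0.47, adjusted p = 0.0107), and was called without its replicate 1 (-0.66, adjusted p = 0.00911). NIA1 and NIA2 are closely related neighbours on chromosome 8, so reads of one may have been counted for the other, and the values of NIA2, the far lower of the pair, are uncertain for this reason. Likewise, reads of a variety whose sequence differs from the MSU7 gene models could be missing from its values, which was not tested. In bulk leaf tissue, fewer cells of a type and less RNA per cell cannot be told apart.

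Because FPKM is scaled for length, the 3 reductases could be set against each other within a library. NIA1 made up 67.3% to 97.8% of their summed FPKM, with a median of 86.9%, NR2 made up 1.55% to 32.6%, with a median of 12.9%, and NIA2 0.0950% to 2.44%, with a median of 0.463%. NIA1 was the largest of the 3 in all 34 libraries. The ratio of NIA1 to NR2 was 2.08 ± 0.014 in LABELLE (SD, n = 2) and 57.7 ± 7.40 in Y134. The share of NR2 averaged 32.5% ± 0.140 in LABELLE, 25.3% ± 0.826 in Yong Chal Byo and 23.8% ± 0.183 in Latisai1, against 2.52% ± 0.295 in 9311 and 1.71% ± 0.216 in Y134 (SD, n = 2 each).

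In PeiC122 the summed FPKM was 154 and 404 in the 2 replicates, while the NR2 share was 4.57% and 5.08%, the NIA1 share 93.0% and 93.5%, and the NIA2 share 2.44% and 1.43%. Ranked by share, Latisai1 came above Ginga and Garia, both of which had more NR2 than its 76.9 FPKM, as its NIA1 level was only 244 FPKM. The share of NIA2 was 1.93% ± 0.716 in PeiC122 and at most 0.806% in the other varieties, that of 9311. The difference in NR2 share between LABELLE and Y134 was 30.8 percentage points, many times the SD of any variety, but no test was run on shares.

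**Figure D4:**
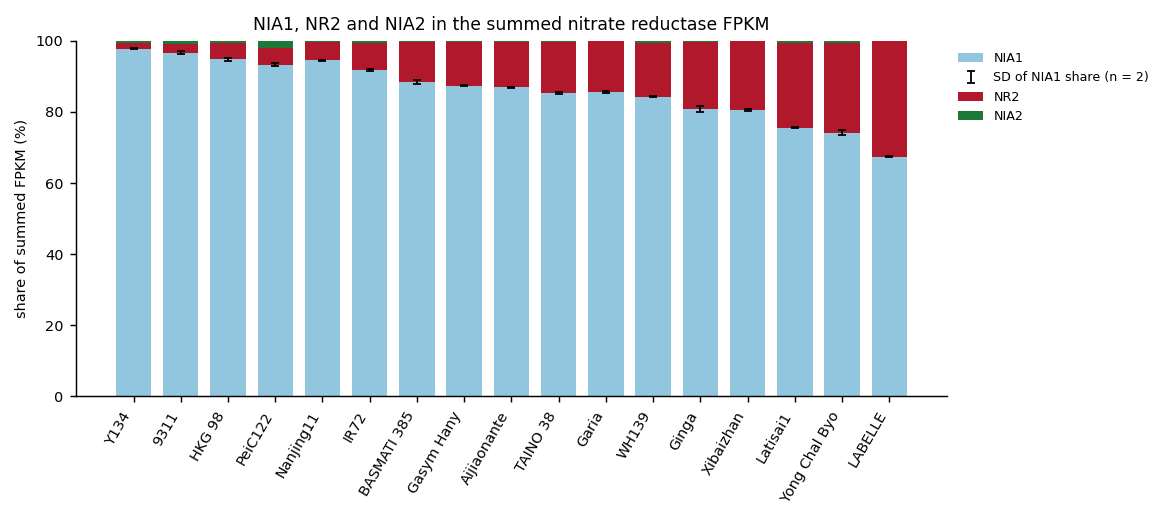
Share of NIA1, NR2 and NIA2 in the summed FPKM of the 3 nitrate reductase genes, in percent, as the mean of 2 libraries for each of 17 varieties ordered by the share of NR2. Error bars are the SD of the NIA1 share. NIA1 takes 97.7% in Y134 and 67.4% in LABELLE, NR2 takes most of the remainder, and NIA2 is visible chiefly in PeiC122 at 1.93%.

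By variety, 14 of the 17 had a call for at least 1 of the 4 tested genes. These were the 14 called for NR2, in 8 of them NR2 alone, so the other genes added no variety. Garia was called higher for 3 of the 4, NRT1.1B, NR2 and NIA1, against 8.76% of all genes called higher in Garia. In Xibaizhan NRT1.1B and NR2 were higher, where 6.52% of all genes were, and NIA2 was lower, where 4.95% were. Y134 was lower for NRT1.1B and NR2 (6.49% of all genes lower) and IR72 for NR2 and NIA1 (7.46% lower). In PeiC122 NIA2 was higher, and NR2 and NRT1.1B were lower, the second only through replicate 1, in a variety where 9.11% of all genes were called higher and 13.9% lower. LABELLE combined the highest NR2 with the lowest NIA2, where 9.52% of all genes were called higher and 6.46% lower. BASMATI 385, TAINO 38 and Gasym Hany had no call for any of the 4 genes.

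Across the 17 varieties, the log2 levels of NR2 and NIA1 had a Pearson's r of 0.52 (Spearman's rho 0.44), and r was 0.64 without Y134 and 9311, the 2 varieties farthest out in NR2. NR2 and NIA2 had r = -0.45 (rho = -0.34), and NIA1 and NIA2 r = -0.30 (rho = -0.09). Without PeiC122 these were -0.37 and -0.15, and that of NR2 and NIA1 was 0.48. NRT1.1B and NR2 had r = 0.51 (rho = 0.42), with r = 0.44 without PeiC122 and 0.24 without both Y134 and PeiC122. These values describe 17 points that share libraries and scaling, and they carry no p-value.

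NIA1 was most like LOC_Os04g43070, from a list of 3 ammonium transporter genes. The files and annotation carry no names for the genes outside the 8 members, so listed genes are given by identifier, and the lists rest on general knowledge of rice nitrogen genes. LOC_Os04g43070 had 350 and 344 FPKM in Garia and 96.8 and 95.7 FPKM in IR72, the same highest and lowest varieties as NIA1. Ginga was next to highest for both, at 255 and 266 FPKM of LOC_Os04g43070. Its highest variety mean was separated from its lowest by 1.84 (SE 0.25, adjusted p = 0.000241), with Garia called higher (0.97, adjusted p = 0.000299) and IR72 lower (-0.99, adjusted p = 0.000243). Over 17 varieties NIA1 and LOC_Os04g43070 had r = 0.92 and rho = 0.89, and r = 0.85 without Garia and IR72. PeiC122 moved the same way in both, with 76.8 and 216 FPKM of LOC_Os04g43070 beside 143 and 378 FPKM of NIA1. Of the 16895 other genes called in the F test, LOC_Os04g43070 was the one whose variety means were most like those of NIA1, a ranking of r that carries no p-value. The rest of its list did not follow NIA1. LOC_Os02g40730 had r = -0.20 with NIA1 (-0.37 without PeiC122). It was not called (adjusted p = 0.0111), with 0.262 and 2.39 FPKM in PeiC122. LOC_Os02g40710 stayed below 1 FPKM and was not tested. Of the 2 ammonium transporter genes tested, 1 was thus called (50%, beside 68.8% of all genes). Of their 34 comparisons, 1 was called higher and 1 lower (2.94% each), beside 6.96% and 6.76% over all genes.

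**Figure D5:**
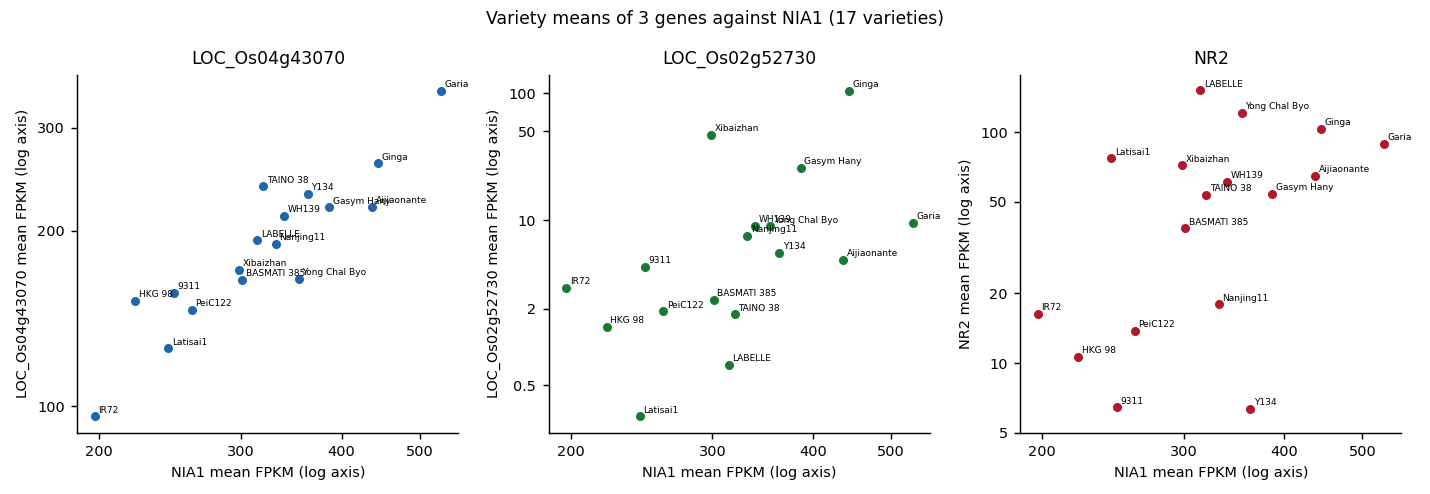
Variety means of LOC_Os04g43070, LOC_Os02g52730 and NR2 against those of NIA1, in FPKM on log axes, 1 point per variety. Points lie along a line for LOC_Os04g43070 (r = 0.92), and scatter for LOC_Os02g52730 (r = 0.56) and NR2 (r = 0.52), where varieties with similar NIA1 differ many-fold.

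The 2 next genes in likeness to NIA1 were LOC_Os03g09220 (r = 0.90) and LOC_Os04g40150 (r = 0.83). For NR2 they were LOC_Os04g18090 (r = 0.87), LOC_Os07g28610 (r = 0.84) and LOC_Os03g02685 (r = 0.83). NRT1.1B was most like LOC_Os12g31780 (r = 0.86), LOC_Os05g42120 (r = 0.80) and LOC_Os07g48500 (r = 0.79). For NIA2 the nearest were LOC_Os02g32160 (r = 0.85), LOC_Os11g01200 (r = 0.84) and LOC_Os05g43480 (r = 0.83), and without PeiC122 these were 0.78, 0.72 and 0.71. No NR2, NIA2 or NRT1.1B neighbour came from the nitrogen lists.

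The step after nitrate reduction was examined with 2 listed nitrite reductase genes, both called, where 68.8% of all genes were. Of their 34 comparisons against the other 16 varieties, 4 were called higher (11.8%) and 9 lower (26.5%), beside 6.96% and 6.76% over all genes. LOC_Os01g25484 lay between 141 and 341 FPKM and was called lower in 2 varieties. Its log2 range among varieties was 1.15, near the median of 1.24 over all genes. LOC_Os02g52730 was the more variable, and its range of 6.36 (SE 0.25, adjusted p = 2.36e-13) exceeded that of NR2. It had 99.6 and 109 FPKM in Ginga, 48.9 and 45.3 FPKM in Xibaizhan and 25.8 FPKM in both Gasym Hany libraries, against 0.383 and 0.188 FPKM in Latisai1 and 0.557 and 0.900 FPKM in LABELLE. It was called higher in 4 varieties, by 4.21 in Ginga, 3.01 in Xibaizhan, 2.11 in Gasym Hany and 0.68 in Garia, and lower in 7. LABELLE and Latisai1, among the highest 5 varieties for NR2, were thus the lowest 2 for LOC_Os02g52730, and over all varieties the 2 genes had r = 0.27 (rho = 0.25). NIA1 had r = 0.56 (rho = 0.67) with LOC_Os02g52730 and r = 0.51 (rho = 0.50) with LOC_Os01g25484.

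Further along, 6 of the 7 listed genes for ammonium assimilation were tested and all 6 were called among varieties, where 68.8% of all genes were, with a median range of 1.04, below the median of 1.24 over all genes. Of their 102 comparisons against the other 16 varieties, 3 were called higher (2.94%) and 2 lower (1.96%), beside 6.96% and 6.76% over all genes. LOC_Os04g56400, the most abundant, had 1028 FPKM in Garia and 510 FPKM in 9311 as its highest and lowest variety means. Of 9 other listed nitrate transport genes, 7 were called (77.8%, beside 68.8% of all genes tested), with a median range of 1.16. Of their 153 comparisons, 8 were called higher (5.23%) and 9 lower (5.88%), beside 6.96% and 6.76% over all genes. LOC_Os01g36720 was the most variable of these genes, with a range of 3.42 (F test, adjusted p = 3.53e-09) and most of these calls, 4 varieties higher and 6 lower. Its variety means lay between 17.6 FPKM in TAINO 38 and 0.756 FPKM in 9311. LOC_Os08g05910 reached 168 FPKM in TAINO 38 but was not called (adjusted p = 0.0185). Its lowest variety mean, 63.0 FPKM, was that of PeiC122, whose replicates had 22.3 and 104 FPKM. That spread enters the SE of 0.36 for this gene, and its level without PeiC122 replicate 1 was not tested. Of 4 listed regulators of the nitrate response 3 were called (75%, beside 68.8% of all genes), with a median range of 1.03. Of their 68 comparisons, 0 were called higher and 1 lower (1.47%), beside 6.96% and 6.76% over all genes. Beside these medians, the range was 4.37 for NR2, 1.88 for NIA2, 1.76 for NRT1.1B and 1.42 for NIA1.

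Many nitrogen genes follow the time of day, and the labels give no hour of harvest for each library. All 7 listed clock genes were called among varieties, where 68.8% of all genes were, with a median range of 1.50. Of their 119 comparisons, 15 were called higher (12.6%) and 14 lower (11.8%), beside 6.96% and 6.76% over all genes. Over the 17 varieties, the r of single clock genes lay between -0.30 and 0.47 for NR2, between -0.11 and 0.39 for NIA1, between -0.36 and 0.42 for NIA2 and between -0.49 and 0.16 for NRT1.1B. Without PeiC122 the highest r was larger for 3 of them, each with LOC_Os08g06110, at 0.62 for NR2, 0.51 for NIA1 and 0.46 for NRT1.1B, and for NIA2 the values lay between -0.47 and 0.34. The summed FPKM of the clock list was 1067 in PeiC122 replicate 2 and 1594 in replicate 1. LOC_Os08g06110 made up most of both sums, with 990 FPKM in replicate 2 and 1471 FPKM in replicate 1. Each of the other listed clock genes was likewise higher in replicate 1. PeiC122 replicate 1 also stood apart for NRT1.1B, NR2 and NIA1, and the part of harvest time in these differences was not tested.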

How the data were processed

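Total RNA of young leaves was sequenced from TruSeq libraries, and the authors trimmed reads with Trimmomatic, mapped them with TopHat and computed FPKM with Cufflinks (2.2.5 in the submitters' processing notes). The genome used for the 17 varieties is unsure: their files list MSU7 identifiers, while the RNA-Seq methods name the MH63 or ZS97 genome and those for the histone marks of all varieties name MSU7. Strand handling is not given in the sources used here. The deposited FPKM values were used as they stand. The 24 libraries of MH63, ZS97 and Nip list other identifiers and were not used here. No 2 libraries held identical values.

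Groups were the genotype in the labels. log2(FPKM + 1) was fitted with limma (3.58.1, R 4.3.3), with a variance trend and two-sided tests, for genes whose mean exceeded 1 FPKM in any variety. Each call needed an adjusted p below 0.01 and more than 1.5-fold. The DESeq2 test of the authors needs counts and was not run. Shares, correlations and plots used Python (3.11.15), numpy (2.4.6), pandas (2.3.3) and matplotlib (3.10.9). Relative depth came from steps between values of 0.001 and 0.3 FPKM. The scripts were tested on simulated data. Alternatives were a pseudocount of 0.1, no filter, quantile normalization, no variance trend, a replicate block and leaving out each library.

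The text names all 8 members, listed genes that were called or on which a result turned, and the 3 genes most like each called member by Pearson's r of log2 variety means. Members, picked by name, and lists were chosen with earlier results of these data known.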

Additional observations from a re-analysis of the deposited data

How the results depend on the processing

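All 4 tested members were called among varieties under every alternative listed, and the number of genes called was 16582 with a pseudocount of 0.1, 17014 without a filter, 17133 after quantile normalization and 16834 without a variance trend. Leaving out 1 library gave 16114 to 20324 genes and 20 to 25 member calls against the other 16 varieties, where all libraries gave 23. Log2 ranges then lay between 1.71 and 2.52 for NRT1.1B, 4.23 and 4.52 for NR2, 1.41 and 1.88 for NIA1, and 1.63 and 2.14 for NIA2, and the differences in share between highest and lowest variety between 30.6 and 30.9 points for NR2, 30.2 and 30.4 for NIA1, and 1.31 and 2.32 for NIA2 (1.81 with all libraries), the last at both ends through a PeiC122 replicate. Outside these limits, the range was 0.97 for NIA1 after quantile normalization, and 2.90 for NIA2 and 4.56 for NR2 with a pseudocount of 0.1. NIA1 was called in 2 varieties, in 0 after quantile normalization and in 1 to 3 with 1 library left out. Without the filter on low values NR2 in WH139 just missed the cutoff of 0.01. A lone library was assumed to vary like the other varieties.

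The replicate numbers did not pair the samples: over 136 pairs of varieties, deviations of same-numbered replicates had r between -0.223 and 0.241. The replicate block called 16686 genes, 16571 of them shared with the fit without it, and changed no member call. FPKM values hold no depth of their own, so the counting error of low values such as those of NRT2.3, NAR2.1 and NIA2 is unknown.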
